A study of Mus musculus with 6 samples.

Results

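Ribosome assembly factors are the proteins and protein partners of small RNAs that build ribosomes in the nucleolus without staying in the finished particle. A set of 60 genes of this kind was taken by name, and 57 of them were measured among the 19505 named genes of the array. Each of the 57 had 1 probe set, so the rule of taking the probe set with the highest mean over the 6 arrays had nothing to choose. Ebna1bp2, Gnl3 and Nop56 are not analysed here. The set holds 27 small-subunit factors, 22 large-subunit factors (20 measured), 7 proteins of small nucleolar ribonucleoproteins, or snoRNPs (6 measured), and 4 general nucleolar proteins. The genes were picked with their measured differences from mVec and between the Kit lines already known, so the counts and values below describe these lines and are no independent evidence of a direction.

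The samples are untreated mouse melanocyte lines of the C57BL/6J background derived from melan-a, an immortalized line, grown in RPMI with serum. The line mKitK641E(T), called T below, carries Kit with the activating K641E substitution and is titled C3#. The line mKitK641E(PT), called PT, carries the same Kit mutant and is titled hi exp, and both are labelled as transformed melanoma cells. The line mVec carries the control vector, titled CD516B2, and is labelled as melanocytes. Each line was measured on 2 Affymetrix Clariom S arrays, and no source used here says what T, PT and C3# stand for. Each group is 1 line, and the titles do not say that the arrays of a line come from separate cultures, so p-values cover the spread between arrays, which may be technical.

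A ribosome is made from ribosomal RNA copied by RNA polymerase I in the nucleolus, and from ribosomal proteins imported from the cytoplasm. The small-subunit processome, a large assembly of the U3 snoRNP and many UTP proteins, folds and cuts the RNA of the small subunit, while separate factors such as the PeBoW complex cut and fold the RNA of the large subunit. Box C/D snoRNPs guide methylation of the RNA and box H/ACA snoRNPs guide the change of uridine to pseudouridine. Growing cells make more ribosomes, and many of these genes are known targets of the transcription factor Myc.

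Values are deposited log2 expression values, on which a difference of 1 is a 2-fold change. Array medians over the 22206 gene probe sets lay between 5.64 and 5.89. The background limit of an array was the 95th percentile of its 5222 negative controls and lay between 8.74 and 9.16. Kit was under this limit on all arrays (4.53 and 5.18 in T, 4.53 and 3.84 in PT, 4.68 and 4.97 in mVec), so its probe set gives no check of the labels. Of 9 melanocyte markers, 2 were above the limit on both T arrays (Gpnmb and Mitf), 1 on both PT arrays and 1 on both mVec arrays (Gpnmb in each). The defining melanocyte markers Tyr, Tyrp1, Dct, Pmel, Mlana, Slc45a2 and Sox10 were under it on all 6 arrays, so the labelled cell type is not seen in these markers. Of 9 measured fibroblast markers, 6 were called lower and 2 higher than in mVec in each Kit line. None of those called higher was shown to reach 2-fold. The highest fibroblast marker value on a Kit array lay between 9.12 and 9.33, near the limit. The summed signal of the 9 ran from 10.73 to 10.76 (log2) on T arrays and from 10.12 to 10.28 on PT arrays. On mVec arrays it was 17.23 to 17.40, and 5 of the 9 were above the limit there. All 23 measured cell division genes rose in both Kit lines relative to mVec, with summed signals of 16.76 to 16.78 in T and 17.58 to 17.60 in PT, against 14.87 to 15.04 in mVec. None of 5 leukocyte and 6 keratinocyte markers was above the limit on any array. The part of these marker differences in the results below was not tested, and in bulk RNA fewer cells of a type and less RNA per cell cannot be told apart.

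Nearly the whole set was higher in both Kit lines than in the vector line. In T, 53 of the 57 measured members rose relative to mVec and 0 fell, and 48 of these were shown to be at least 2-fold higher, by the lower bound where mVec was at background (limma over all gene probe sets, Benjamini-Hochberg adjusted p under 0.05). Over all probe sets 16.9% were called higher, 15.5% lower and 8.43% higher by at least 2-fold counted the same way. The median log2 difference of the members was 2.68, or 2.63 over 56 members when a member at background in mVec is set to its lower bound, beside 0.01 over all gene probe sets. In PT, 55 of the 57 rose and 0 fell, and 54 were shown to be at least 2-fold higher, where 17.9% of all probe sets were called higher, 18% lower and 9.24% higher by at least 2-fold. The median was 3.29, or 3.004 with bounds, beside 0.08 over all gene probe sets. Both comparisons use the same 2 mVec arrays. The 53 members called in T were all called in PT as well.

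Among the 7953 probe sets above the limit on 2 or more arrays, 41.2% were called higher in T and 40.9% in PT. On both T and PT arrays 56 of the 57 members were above the limit, against 42 on both mVec arrays, with 3 more on 1 of them (Utp20, Ftsj3 and Ddx56) and 12 under the limit on both. Nop9, a small-subunit factor, was the member under the limit on all 6 arrays, so no fold is given for it. For the other 11 members at background in mVec the fold is a lower bound, written as at least. The arrays of T and mVec did not overlap for any of the 57 members, with T above mVec each time (31.6% of all probe sets), and those of PT and mVec did not overlap for 56 (36.2% of all probe sets), all but Imp3. The standard errors of the members' differences lay between 0.20 and 0.31 in all comparisons. Adjusted p-values of the called members (limma) ran from 2.68e-07 to 0.0407 in T and from 7.55e-08 to 0.00714 in PT.

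**Figure D1:**
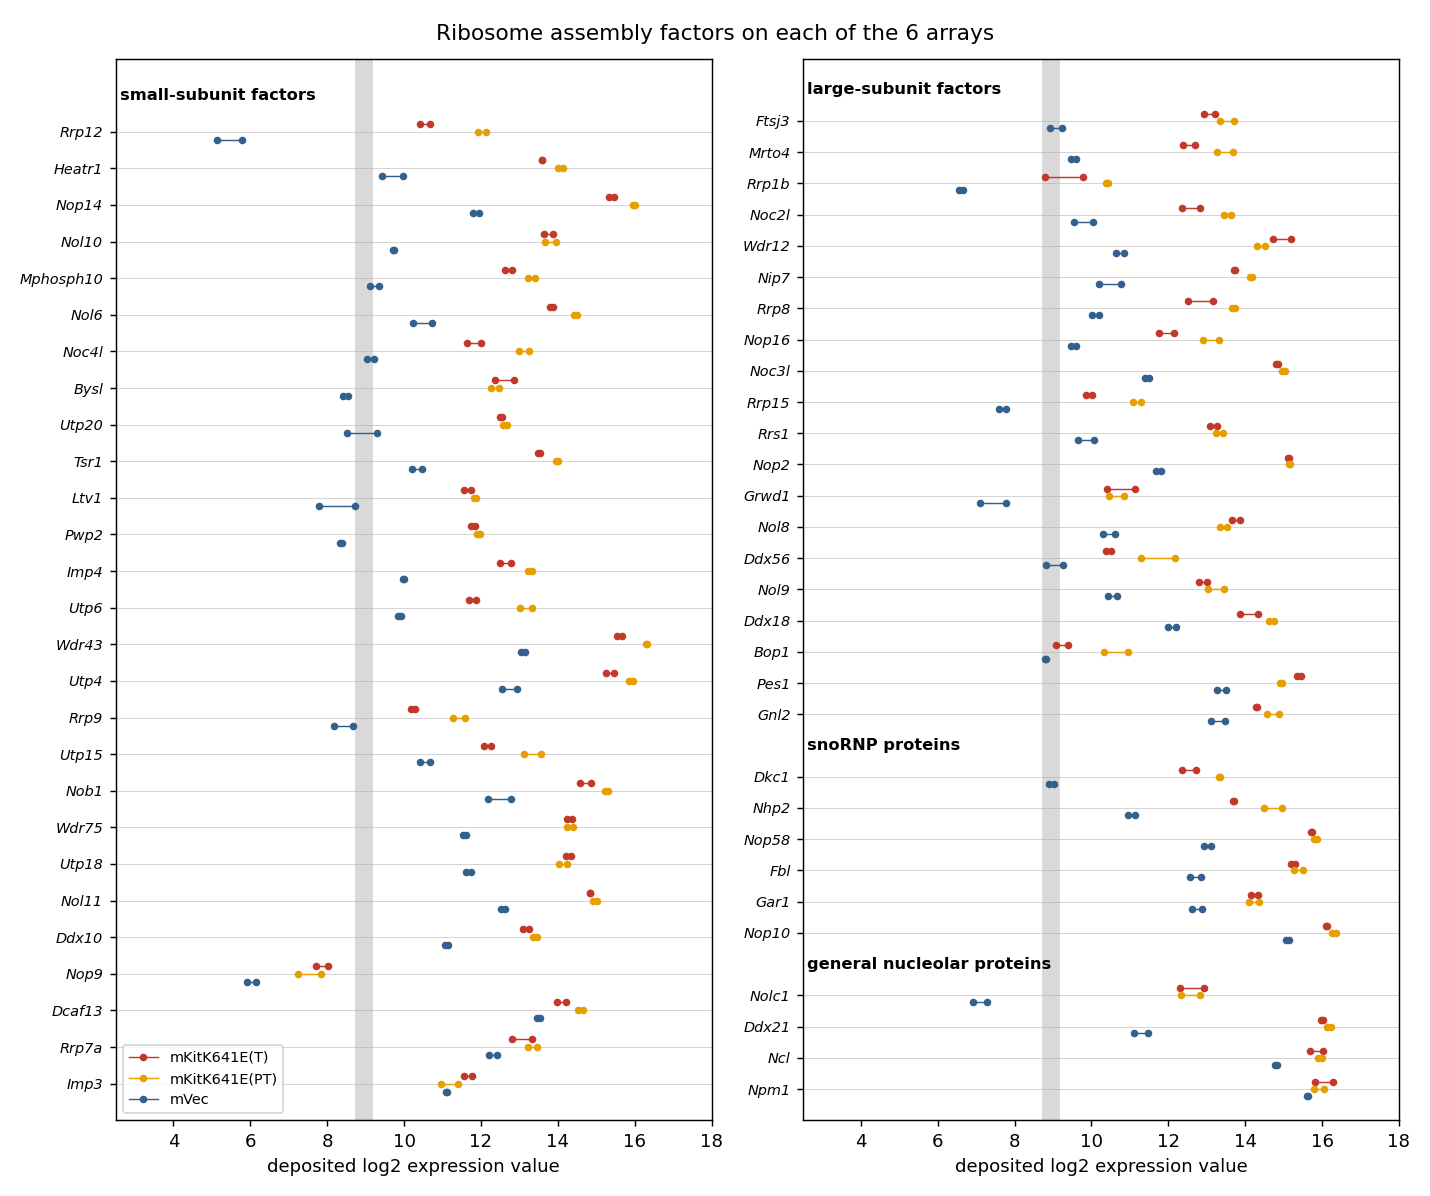
Deposited log2 values (x axis) of the 57 measured members (rows, grouped by role and ordered by the PT minus mVec difference) on the T arrays (red), PT arrays (orange) and mVec arrays (blue), the 2 arrays of a line joined by a bar; the grey band spans the background limits, 8.74 to 9.16. The red and orange pairs lie to the right of the blue pair in all rows but Imp3, where PT and mVec overlap.

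Of the 27 small-subunit factors, 25 rose in T and 26 in PT, with median differences of 2.65 and 3.29 (2.63 and 3.09 with bounds). The UTP-A proteins, which bind the nascent ribosomal RNA first, rose in both lines (6 of 6 measured: Utp4, Utp15, Nol11, Heatr1, Wdr43 and Wdr75). Heatr1, the largest of them and also needed for RNA polymerase I activity, had 13.60 and 13.59 in T and 14.01 and 14.14 in PT, against 9.98 and 9.42 in mVec. These values are 14.8-fold and 20.7-fold above mVec (differences 3.89 ± 0.24 and 4.37 ± 0.24). The others ran from 1.63 (Utp15) to 2.72 (Wdr75) in T, and from 2.401 (Nol11) to 3.22 (Wdr43) in PT. Utp4 is the protein whose human form, cirhin, is altered in a childhood cirrhosis; its differences were 2.61 for T and 3.15 for PT.

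UTP-B proteins join the processome with the U3 snoRNP, and those in the set rose as well (3 of 3: Pwp2, Utp6 and Utp18). The set does not hold the whole of UTP-B. Pwp2, a scaffold of UTP-B, had 11.84 and 11.74 in T and 11.89 and 11.98 in PT, against 8.33 and 8.39 in mVec. Both mVec arrays were under the limit, so Pwp2 was at least 6.9-fold higher in T and at least 7.65-fold higher in PT. Utp6 had 11.88 and 11.69 in T and 13.02 and 13.32 in PT, against 9.83 and 9.92 in mVec, with the T arrays between the other lines. Utp18 differed from mVec by 2.59 for T and 2.45 for PT. Rrp9, the protein that marks the U3 snoRNP, had 10.18 and 10.29 in T and 11.27 and 11.58 in PT, against 8.19 and 8.68 in mVec. It was at background in mVec and at least 2.35-fold higher in T and at least 5.37-fold higher in PT.

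In the Mpp10 complex, which sits on the pre-ribosomal RNA beside U3, 2 of the 3 subunits rose. Mphosph10 had 12.62 and 12.82 in T and 13.41 and 13.23 in PT, against 9.34 and 9.12 in mVec, 11.2-fold and 17-fold above mVec. Imp4 differed from mVec by 2.65 ± 0.21 in T and 3.29 ± 0.21 in PT. Imp3 had 11.55 and 11.78 in T and 10.95 and 11.39 in PT, against 11.12 and 11.10 in mVec. Its differences, 0.56 ± 0.23 in T (adjusted p = 0.0919) and 0.06 ± 0.23 in PT (adjusted p = 0.874), did not pass the limma test, and its PT and mVec arrays overlap. The T value passed when the arrays were shifted to equal medians (0.74, adjusted p = 0.0354) and among probe sets above background on 2 or more arrays (adjusted p = 0.0318), in a range from 0.0318 to 0.299 over its 13 alternatives; the PT value took either sign among them. The difference between Imp3 and its partners was not tested.

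The promoter windows of Imp4 and Imp3 are shown because both proteins belong to this complex, while Imp4 was called higher in both Kit lines and Imp3 in neither. Each is the RefSeq window on GRCm38.p6 from 250 bases before to 50 after the annotated start, 5′ to 3′ on the gene's strand, and capitals mark CACGTG, the E-box bound by Myc and related factors. The Imp4 window holds it once, from base 130 of the window, and the Imp3 window does not hold these letters. The window of Mphosph10, the other subunit, which rose in both lines, does not hold them either. Measured members with the motif had median differences from mVec of 2.64 in T and 3.22 in PT. Those with a window but without the motif had 2.72 and 3.57. The part of the motif in the split between Imp4 and Imp3 was not tested.
Imp4 promoter, chr1:34439579-34439878, plus strand: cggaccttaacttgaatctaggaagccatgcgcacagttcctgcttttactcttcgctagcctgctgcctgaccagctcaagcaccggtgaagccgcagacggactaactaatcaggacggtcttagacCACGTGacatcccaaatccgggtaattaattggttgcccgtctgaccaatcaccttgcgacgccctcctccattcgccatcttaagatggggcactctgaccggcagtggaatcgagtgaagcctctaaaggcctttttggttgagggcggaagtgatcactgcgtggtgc
Imp3 promoter, chr9:56937250-56937549, plus strand: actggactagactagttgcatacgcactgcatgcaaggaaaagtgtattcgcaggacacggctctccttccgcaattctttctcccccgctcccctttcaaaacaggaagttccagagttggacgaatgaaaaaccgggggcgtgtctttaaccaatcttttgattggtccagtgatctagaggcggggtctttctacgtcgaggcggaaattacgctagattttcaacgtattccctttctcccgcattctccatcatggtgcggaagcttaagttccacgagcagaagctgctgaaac

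**Figure D2:**
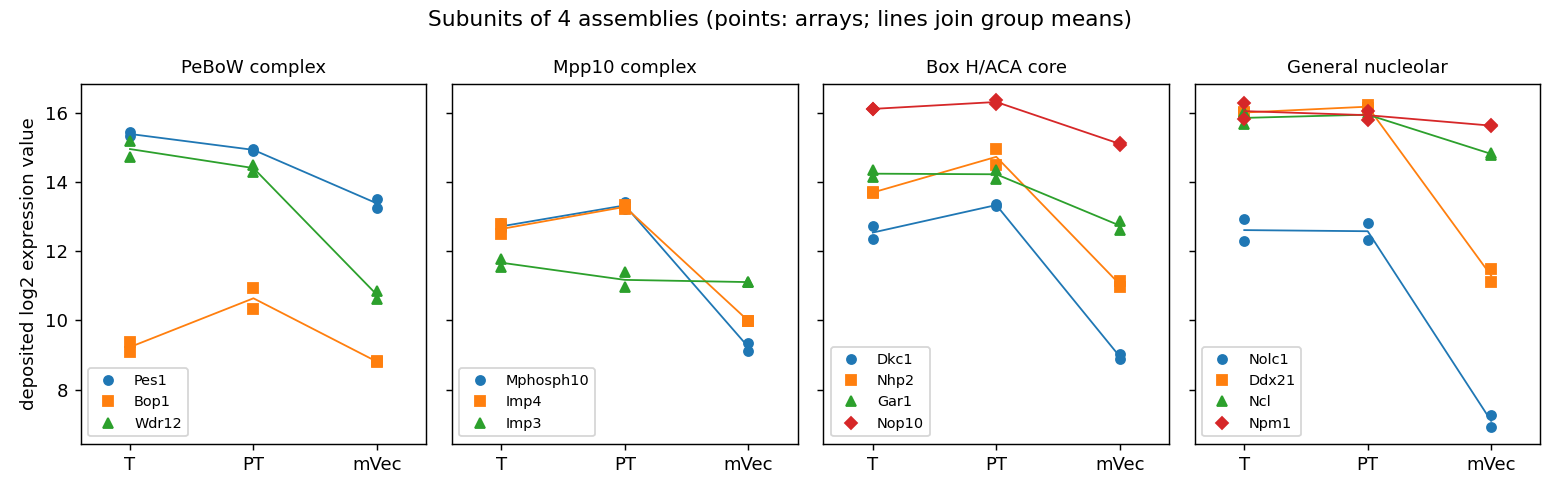
Deposited log2 values (y axis) of the PeBoW, Mpp10 and box H/ACA subunits and the general nucleolar proteins in T, PT and mVec (x axis); points are single arrays, 2 per line, and lines join the means. Imp3, Npm1 and, in T, Bop1 stay close to their mVec values, while partners such as Mphosph10 (means 12.72 in T, 13.32 in PT and 9.23 in mVec) lie well above theirs.

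Nop14 and Noc4l form a pair within the processome. Nop14 had 15.33 and 15.47 in T and 16.01 and 15.94 in PT, against 11.79 and 11.95 in mVec, 11.5-fold and 17.2-fold above mVec. Noc4l had 11.63 and 12.001 in T and 12.998 and 13.25 in PT, against 9.23 and 9.03 in mVec, and its PT arrays lie above its T arrays. It was 6.43-fold and 15.9-fold above mVec. In the UTP-C group, Nol6 had 13.87 and 13.81 in T and 14.51 and 14.43 in PT, against 10.72 and 10.22 in mVec, with the Kit lines far above mVec. Rrp7a, its partner, differed by 0.74 ± 0.24 in T (adjusted p = 0.0407) and 1.02 ± 0.24 in PT (adjusted p = 0.00714). The T call of Rrp7a was lost in 7 alternatives, not all of them separate checks. It was lost with only the 4 T and mVec arrays (limma adjusted p = 0.0559), which is the same fit as without either PT array. It was also lost with quantile normalization (adjusted p = 0.109). The call was lost as well without T replicate 2 (difference 0.48) and without either mVec array (differences 0.63 and 0.84). Its PT call was lost without PT replicate 2 (0.0554) and without mVec replicate 1 (0.0610), in a range from 0.000718 to 0.0610.

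Nol10, the counterpart of yeast Enp2, had 13.87 and 13.64 in T and 13.96 and 13.66 in PT, against 9.73 and 9.70 in mVec, 16.4-fold and 17.1-fold above mVec. Utp20, a very large scaffold protein, had 12.55 and 12.50 in T and 12.58 and 12.67 in PT, against 9.30 and 8.51 in mVec. One mVec array of Utp20 was above the limit and the other below, and all T and PT arrays were far above both (12.2-fold and 13.1-fold above mVec). Its promoter window is shown as that of the small-subunit member with the largest PT difference among those holding CACGTG, which starts at base 288 of the window, after the annotated start.
Utp20 promoter, chr10:88826765-88827064, minus strand: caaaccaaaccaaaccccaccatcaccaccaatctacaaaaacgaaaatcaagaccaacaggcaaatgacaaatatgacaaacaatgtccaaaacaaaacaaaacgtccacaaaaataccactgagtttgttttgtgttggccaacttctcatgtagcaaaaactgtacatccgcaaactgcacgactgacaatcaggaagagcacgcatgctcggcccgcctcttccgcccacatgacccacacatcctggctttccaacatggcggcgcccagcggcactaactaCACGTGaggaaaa

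Ddx10, a helicase whose yeast counterpart frees a snoRNA from the pre-ribosome, differed by 2.07 for T and 2.30 for PT. Dcaf13, the counterpart of yeast Sof1, had 14.21 and 13.98 in T and 14.53 and 14.65 in PT, against 13.54 and 13.47 in mVec. It rose in PT (1.09 ± 0.20), and its T value of 0.59 ± 0.20 did not pass (adjusted p = 0.0521). That T value passed when arrays were shifted to equal medians (adjusted p = 0.0163), with an intensity trend (0.00586) and among probe sets above background on 2 or more arrays (0.0137), in a range from 0.00586 to 0.211. Nop9, known in yeast for binding the small-subunit RNA, was called higher in both lines with all 6 values under the limit (means 7.86 in T and 7.53 in PT, with 6.02 in mVec).

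Factors that act late on the small subunit, through nuclear export and final cutting in the cytoplasm, rose in both lines (5 of 5). Rrp12, an export factor, had 10.43 and 10.68 in T and 11.93 and 12.12 in PT, against 5.14 and 5.78 in mVec; the mVec arrays were far under the limit. With mVec at background the fold is at least 2.93 in T and at least 8.15 in PT. Bysl, or bystin, had 12.37 and 12.85 in T and 12.26 and 12.47 in PT, against 8.41 and 8.53 in mVec, at least 12.2-fold and at least 10.3-fold higher. Ltv1, which helps export the subunit, had 11.74 and 11.55 in T and 11.82 and 11.87 in PT, against 7.80 and 8.71 in mVec. Its mVec arrays were under the limit, and the fold is at least 6.23 in T and at least 7.18 in PT. Nob1, the nuclease that makes the final cut of the small-subunit RNA, had 14.57 and 14.85 in T and 15.23 and 15.30 in PT, against 12.78 and 12.19 in mVec, 4.69-fold and 6.87-fold above mVec. Tsr1, a GTPase-like factor of late particles, differed by 3.17 for T and 3.63 for PT.

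Of the 20 measured large-subunit factors, 19 rose in T and 20 in PT, with medians of 2.76 and 3.48 (2.57 and 3.19 with bounds). The PeBoW complex, Pes1, Bop1 and Wdr12, is needed to cut the spacer beside the large-subunit RNA, and 2 of the 3 subunits rose in T and 3 in PT. Wdr12 had 14.72 and 15.18 in T and 14.30 and 14.50 in PT, against 10.63 and 10.85 in mVec, 18.5-fold and 12.6-fold above mVec. Pes1, bright in all lines, had 15.34 and 15.44 in T and 14.95 and 14.90 in PT, against 13.26 and 13.50 in mVec, 4.02-fold and 2.92-fold above mVec. Bop1 had 9.38 and 9.08 in T and 10.33 and 10.95 in PT, against 8.80 and 8.81 in mVec. It was at background in mVec, rose in PT by at least 3.11-fold (1.83 ± 0.25, adjusted p = 0.000238) and did not pass in T (0.42 ± 0.25, adjusted p = 0.259). Wdr12 and Pes1 had their higher values in T, and Bop1 had its higher values in PT; among the 3, the T minus PT test passed for Bop1.

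Enzymes that modify ribosomal RNA rose in both lines. Nop2, a cytosine methyltransferase and a marker of dividing cells, had 15.13 and 15.11 in T and 15.15 and 15.15 in PT, against 11.82 and 11.67 in mVec, 10.4-fold and 10.6-fold above mVec. Its window is shown as that of the large-subunit member with the largest PT difference among those holding CACGTG, here from base 191, before the annotated start.
Nop2 promoter, chr6:125131633-125131932, plus strand: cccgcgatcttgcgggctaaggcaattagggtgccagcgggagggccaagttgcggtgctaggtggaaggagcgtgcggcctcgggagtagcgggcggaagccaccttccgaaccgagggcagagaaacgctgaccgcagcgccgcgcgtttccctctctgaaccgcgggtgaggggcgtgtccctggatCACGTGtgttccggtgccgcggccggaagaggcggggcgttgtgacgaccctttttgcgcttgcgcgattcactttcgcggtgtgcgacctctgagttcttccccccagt

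Ftsj3, the counterpart of the yeast methyltransferase Spb1, had 12.93 and 13.21 in T and 13.36 and 13.70 in PT, against 9.24 and 8.92 in mVec. Only 1 mVec array was above the limit, and the T and PT arrays were over 3 log2 units above both (15.9-fold and 21.9-fold above mVec). Rrp8, a methyltransferase also called nucleomethylin, differed by 2.72 for T and 3.59 for PT. Nol9, a kinase that acts on cut RNA ends, differed by 2.36 for T and 2.69 for PT.

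Noc3l, an early large-subunit factor, had 14.80 and 14.85 in T and 14.96 and 15.04 in PT, against 11.40 and 11.49 in mVec, 10.4-fold and 11.7-fold above mVec. Its partner Noc2l had 12.37 and 12.82 in T and 13.44 and 13.63 in PT, against 9.54 and 10.05 in mVec, 6.96-fold and 13.4-fold above mVec. Rrs1, which helps bring in the 5S RNA particle, had 13.08 and 13.27 in T and 13.24 and 13.43 in PT, against 9.66 and 10.07 in mVec, 9.91-fold and 11.1-fold above mVec. The arrays of the Kit lines lay above those of mVec for each of these genes. Mrto4, which holds the place of the ribosomal stalk, had 12.37 and 12.68 in T and 13.26 and 13.68 in PT, against 9.45 and 9.59 in mVec, 8.03-fold and 15.5-fold above mVec. Rrp15 had 10.01 and 9.84 in T and 11.08 and 11.29 in PT, against 7.79 and 7.60 in mVec, at least 1.9-fold higher in T and at least 4.55-fold in PT. Rrp1b, which also binds a phosphatase, had 9.77 and 8.80 in T and 10.37 and 10.43 in PT, against 6.66 and 6.56 in mVec. The T arrays of Rrp1b lay apart from each other, and its fold over the mVec limit was at least 1.22 in T and at least 2.63 in PT.

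The remaining large-subunit factors rose too. Ddx56, a helicase, had 10.37 and 10.51 in T and 11.29 and 12.17 in PT, against 8.81 and 9.26 in mVec, with PT above T on both arrays. Ddx18, a helicase of the same family, differed by 2.003 for T and 2.59 for PT, and Nip7 by 3.24 for T and 3.66 for PT. Nop16 differed by 2.43 for T and 3.57 for PT, and Nol8 by 3.30 for T and 2.98 for PT. Grwd1, a histone-binding protein of large-subunit particles, was at background in mVec and at least 3.42-fold higher in T and at least 3.15-fold in PT. Gnl2, a nucleolar GTPase, had the smallest called difference of this role in T, 0.998 ± 0.22 (adjusted p = 0.00643), and 1.43 ± 0.22 in PT. The T call of Gnl2 was lost without mVec replicate 2 (adjusted p = 0.0696), in a range from 0.000245 to 0.0696 over its alternatives.

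All 6 measured snoRNP proteins rose in both lines, with medians of 2.59 in T and 2.74 in PT. Dkc1, or dyskerin, the enzyme that makes pseudouridine and also a part of telomerase, had 12.73 and 12.35 in T and 13.31 and 13.35 in PT, against 9.03 and 8.89 in mVec. Its mVec arrays lay just under their limits of 9.06 and 8.95, and the gap was at least 11.6-fold in T and at least 20.1-fold in PT. Nhp2, a core protein of the same particle, had 13.68 and 13.71 in T and 14.49 and 14.96 in PT, against 10.95 and 11.13 in mVec, 6.29-fold and 12.8-fold above mVec. Gar1 had 14.34 and 14.14 in T and 14.35 and 14.10 in PT, against 12.61 and 12.87 in mVec, 2.83-fold and 2.79-fold above mVec. Nop10, the smallest core protein, had 16.10 and 16.12 in T and 16.37 and 16.25 in PT, against 15.06 and 15.14 in mVec, 2.01-fold and 2.31-fold above mVec.

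Of the box C/D core, Fbl and Nop58 were measured. Fbl, or fibrillarin, the methyltransferase of these particles, had 15.18 and 15.28 in T and 15.26 and 15.49 in PT, against 12.57 and 12.85 in mVec, 5.74-fold and 6.35-fold above mVec. Nop58, a scaffold of the particle, had 15.75 and 15.72 in T and 15.78 and 15.86 in PT, against 12.93 and 13.10 in mVec, 6.58-fold and 6.99-fold above mVec. Their differences from mVec were close to each other, 2.52 and 2.72 in T and 2.67 and 2.80 in PT.

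The general nucleolar proteins included 1 member that passed in neither line, Npm1, and 3 that rose in both. Nolc1, a chaperone of snoRNPs that ties them to the nucleolus, had 12.92 and 12.30 in T and 12.33 and 12.83 in PT, against 6.91 and 7.28 in mVec. It was at background in mVec and at least 12.2-fold higher in T and at least 11.9-fold in PT. Ddx21, a helicase that links RNA polymerase I transcription and RNA processing, had 16.03 and 15.98 in T and 16.22 and 16.13 in PT, against 11.48 and 11.11 in mVec, 26.2-fold and 29.5-fold above mVec. Ncl, or nucleolin, had 16.03 and 15.67 in T and 15.90 and 15.99 in PT, against 14.79 and 14.84 in mVec, 2.06-fold and 2.2-fold above mVec. Npm1, or nucleophosmin, had 16.27 and 15.82 in T and 15.80 and 16.06 in PT, against 15.64 and 15.62 in mVec. Its differences of 0.42 ± 0.23 in T (adjusted p = 0.217) and 0.30 ± 0.23 in PT (adjusted p = 0.376) did not pass, although its arrays did not overlap. With an intensity trend in the fit the T value passed (adjusted p = 0.0461, range 0.0461 to 0.616 over its alternatives).

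The members brightest in mVec had small differences. In the 3 members with an mVec mean above 14, Nop10, Ncl and Npm1, the differences ran from 0.42 to 1.04 in T and from 0.30 to 1.21 in PT. Ddx21 reached 15.98 to 16.22 in the Kit lines, and the highest gene value of any array was 18.16. The part of brightness in these differences was not tested.

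The order of the roles by median depended on the members at background in mVec. In T the medians were 2.65 for small-subunit factors, 2.76 for large-subunit factors, 2.59 for snoRNP proteins and 2.88 for general nucleolar proteins. With each such member at its bound they were 2.63, 2.57, 2.59 and 2.32, so the general nucleolar proteins had the highest median by one measure and the lowest by the other. In PT the medians were 3.29, 3.48, 2.74 and 3.01 in the same order of roles, and 3.09, 3.19, 2.74 and 2.35 with bounds. The difference between roles was not tested.

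The 2 Kit lines differed from each other in fewer members, with each called difference lower in T. T was called lower than PT for 11 of the 57 and higher for 0, where 2.7% of all probe sets were called lower in T and 5.67% higher. The 11 are 5 small-subunit factors (Rrp12, Utp6, Noc4l, Rrp9 and Utp15), 5 large-subunit factors (Bop1, Ddx56, Rrp15, Nop16 and Mrto4) and the snoRNP protein Nhp2. Rrp12 had the widest gap (-1.48 ± 0.26, adjusted p = 0.00872), followed by Bop1 (-1.41 ± 0.25, adjusted p = 0.0098) and Utp6 (-1.38 ± 0.21, adjusted p = 0.00545). The median over the members was -0.42, beside -0.04 over all gene probe sets. The T mean was below the PT mean in 46 members and above it in 11, and the arrays did not overlap with T below PT in 40 members (26.3% of all probe sets) and with T above PT in 4 (23.8%).

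Of these 11 calls, 10 were lost in at least 1 fit that left out an array. Utp6 was the member called in all 6 of these fits. The count of members fell in each of them, furthest without PT replicate 2. The share of all probe sets called lower in T fell in each of them as well. The members' median T minus PT difference lay between -0.45 and -0.29 in these fits, against -0.42 with all arrays. Among probe sets above background on 2 or more arrays the count of members was 20, where 11% of those probe sets were called lower. With an intensity trend it was 22, where 4.28% of all probe sets were called lower, against 2.7% in the main fit. The cell division genes moved the same way, 13 of 23 called lower in T than in PT and 0 higher, with a median of -0.99; their part in the members' difference was not tested. Wdr12, Imp3 and Pes1 had the highest T minus PT values of all members (0.55, 0.50 and 0.46), and none passed.

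**Figure D3:**
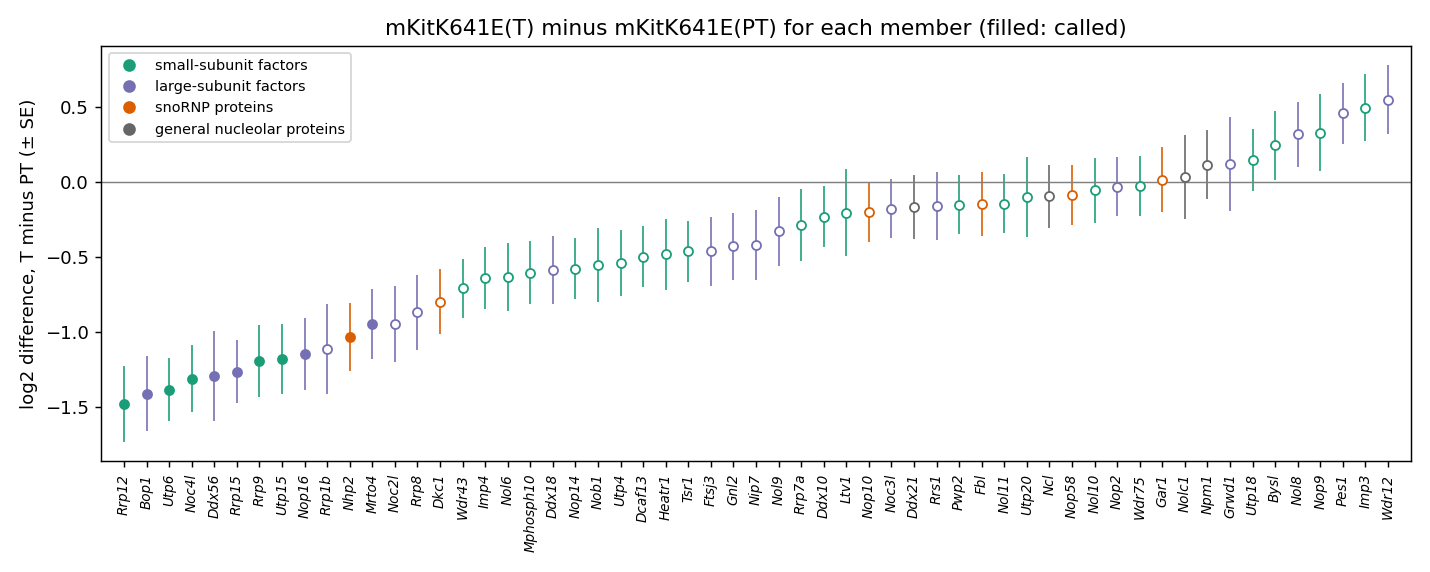
Log2 difference T minus PT (y axis, with the standard error of the limma fit) for the 57 measured members (x axis, in order of the difference), coloured by role; filled points are called. The 11 filled points run from -1.48 (Rrp12) to -0.95 (Mrto4), and 46 of the 57 points are below 0.

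Other assembly genes that are not in the set rose with it. Of 90 measured genes on 3 lists, 81 rose in T and 0 fell, and 84 rose in PT and 0 fell, with medians of 2.07 and 2.35 (1.697 and 1.997 with bounds); with quantile normalization the T counts were 79 and 1. Among small-subunit genes 30 of 32 rose in T and 32 in PT, including Wdr3 (3.84 in T), Krr1 (3.09 in T and 4.03 in PT) and Wdr46 (3.799 in PT). Among large-subunit genes 33 of 38 rose in T and 34 in PT, including Rpf2 (4.09 and 4.58), Mak16 (3.74 and 3.93) and Eif6, which keeps immature large subunits from joining small ones (3.19 and 3.803). Among snoRNP assembly and nuclear exosome genes 18 of 20 rose in each line, including Mphosph6 (3.38 and 3.64) and Tcof1, or treacle, which was at background in mVec and at least 13.3-fold higher in T and at least 17.8-fold in PT. Nsa2, Nop53, Ddx24, Rrp1, Exosc4 and C1d passed in neither line.

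Of 14 measured RNA polymerase I genes, 10 rose in T and 11 in PT and 0 fell in either, with medians of 1.42 in T and 1.23 in PT. Over the 11 that were above the limit in at least 1 line of each comparison, the medians with bounds were 1.49 in T and 2.04 in PT. The catalytic subunit Polr1a differed by 2.61 in T and 3.51 in PT. Cytosolic ribosomal proteins, the products that these factors assemble, did not show such a shift. Of 79 listed genes 56 were measured. Among the 56, 4 rose and 1 fell in T, and 3 rose and 5 fell in PT, with medians of 0.14 and -0.11. Those that rose were 7.14% in T and 5.36% in PT, beside 16.9% and 17.9% of all probe sets. Among probe sets above the limit on 2 or more arrays the shares were 41.2% and 40.9%. The PT median was 0.08 with arrays shifted to equal medians, which made the counts 10 and 1 in T and 6 and 2 in PT. With quantile normalization 0 rose and 1 fell in T, 2 rose and 10 fell in PT, and the medians were 0.10 and -0.11. The 56 ribosomal protein genes were above background on all 6 arrays, with array medians between 15.50 and 15.82. In the 9 with an mVec mean of 14 or less, 0 rose and 1 fell in T and 2 rose and 1 fell in PT. All gene lists were chosen with earlier results of these data known, and the difference between lists was not tested.

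**Figure D4:**
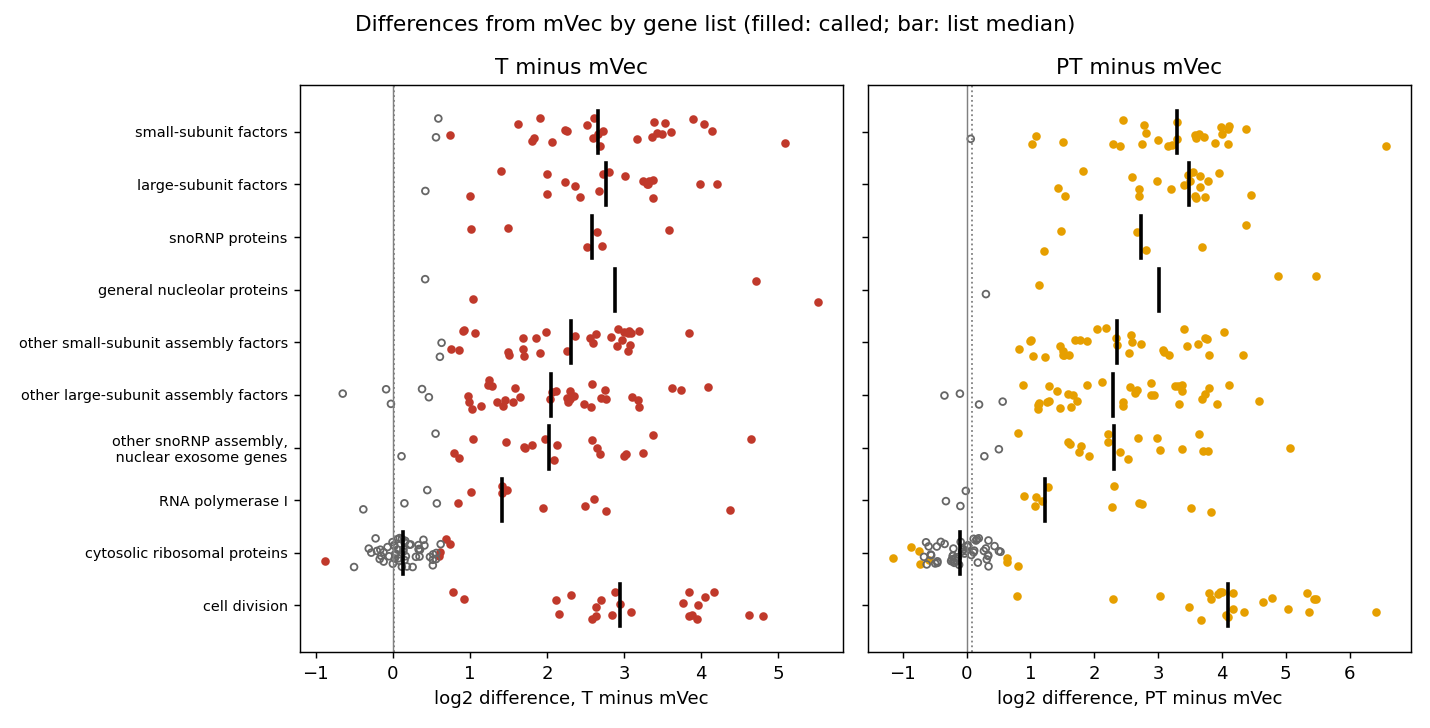
Log2 differences from mVec (x axis) in T (left, red) and PT (right, orange) for each measured gene of the 4 roles and of 6 other lists (rows); filled points are called, open points are not, black bars are list medians without bounds and the dotted line is the median of all gene probe sets. The 4 roles have medians from 2.59 to 2.88 in T and from 2.74 to 3.48 in PT, while the ribosomal proteins gather around 0. The cell division genes have medians of 2.95 in T and 4.10 in PT.

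The promoter windows were searched for CACGTG, which reads the same on both strands. RefSeq windows of 300 bases were found for 51 of the 60 members, all but Npm1, Gnl2, Nol6, Fbl, Dcaf13, Bop1, Rrp12, Utp6 and Rrs1, and 12 members held the letters, 23.5% of those with a window. Over all 27025 genes with a window the share was 8.09%, and over the 15691 of them on the array 9.26%. Of the 12, 9 are small-subunit factors (of 23 with a window) and 3 are large-subunit factors (of 19), while none of 6 snoRNP and 3 general nucleolar genes held the letters in this window. The motif lay at or after the annotated start in 7 of the 12 and before it in 5. Of 58 ribosomal protein genes with a window 6 held it (10.3%), and of 74 other assembly genes 13 (17.6%). Member windows are rich in CG, with a median of 22 CG pairs beside 14 over windows of array genes and 7 over all windows; the part of base composition in the motif's share was not tested.

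The 12 with the motif had a median log2 difference from mVec, without bounds, of 2.64 in T and 3.22 in PT, and the 36 measured members with a window but without it had medians of 2.72 in T and 3.57 in PT. The differences of the 12 ran from 0.74 to 3.61 in T and from 1.02 to 3.71 in PT. Those of the 36 ran from 0.56 to 5.51 in T and from 0.06 to 5.48 in PT. The part of the motif in these differences was not tested. A match is a description of these letters and not a bound site.

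**Figure D5:**
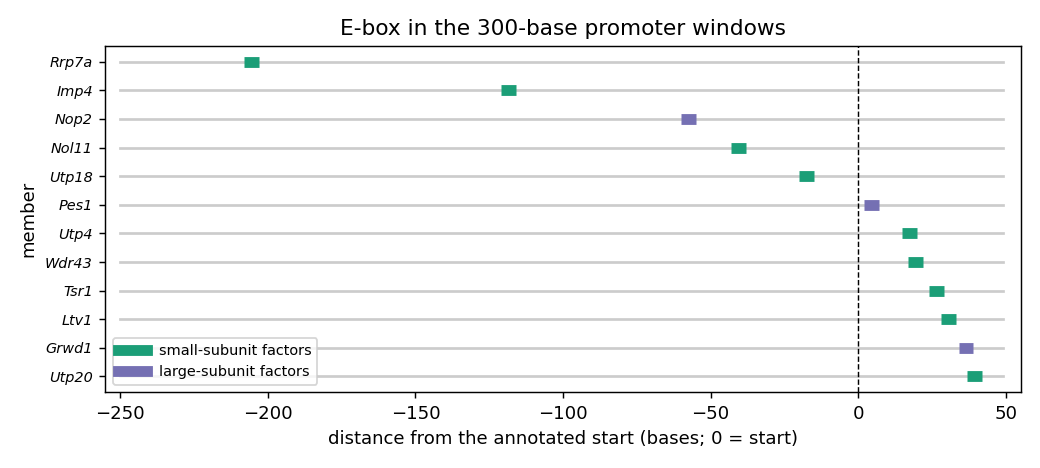
Position of the E-box (coloured blocks, x axis in bases from the annotated start at 0) in the promoter windows of the 12 members that hold it (rows); grey lines span the window, green marks small-subunit and purple large-subunit factors. The motif lies at or after the start in 7 members (Pes1, Utp4, Wdr43, Tsr1, Ltv1, Grwd1 and Utp20) and before it in 5.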

How the data were processed

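Per the labels, total RNA taken with RNeasy columns from 3 lines, 2 arrays each, was biotin labelled and hybridized to Affymetrix Clariom S arrays. The values the authors deposited are log2 expression values for each probe set on each array, a unit read from their range. Software, background correction and normalization are steps not given in the sources used here, and none is assumed. The table has 28846 rows, of which 22206 gene probe sets were tested and 6640 control rows were not. Symbols came from the platform annotation (19572 probe sets with 1 symbol, 2634 with none). With R 4.3.3 and limma 3.58.1, 1 linear model with line means was fitted to all 6 arrays (3 residual and 6.362 prior degrees of freedom); p-values are two-sided and adjusted by Benjamini-Hochberg over all gene probe sets within a comparison, called under 0.05. The fit was also run on simulated independent normal values, a check of the code and not of the p-values of these arrays. A group is at background when neither array exceeds the 95th percentile of the 5222 negative controls, and a fold against it uses that limit.

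All 60 members may be named. Values on every array are given for members fixed by role, members not called or called lower against mVec, the 4 largest called differences from mVec of each role, and the 6 largest called T minus PT differences; the first rule was applied to the comparisons with mVec. Complexes were grouped by textbook knowledge. Of other pathway genes, examples are from the 4 largest called differences of a list. The members and lists were chosen with earlier results of these data known. Promoter sequences are from RefSeq on GRCm38.p6; protein sequences were not used here. Alternatives were other scalings, filters and priors, fits of 4 arrays, the replicate number as a block and leaving out each array. Precision is limited by having 2 arrays a line.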

Additional observations from a re-analysis of the deposited data

Results flagged for a closer look

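The 2 Kit lines were called different from each other in 11 members by the limma test of T minus PT. Each had a lower value in T, where 2.7% of all probe sets were called lower in T and 5.67% higher. Most of these calls did not hold in every fit that left out an array. The log2 differences were -1.48 for Rrp12, -1.41 for Bop1, -1.38 for Utp6, -1.31 for Noc4l, -1.29 for Ddx56, -1.26 for Rrp15, -1.19 for Rrp9, -1.17 for Utp15, -1.14 for Nop16, -1.03 for Nhp2 and -0.95 for Mrto4. Bop1 is the one of the 11 that was called against mVec in PT and not in T.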

How the results depend on the processing

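Under the alternatives that kept all arrays of the lines compared, 52 to 55 members were called higher in T and 54 to 55 in PT. None was called lower. The share of all tested probe sets called higher ran from 16.5% to 41.2% in T and from 17.9% to 40.9% in PT. With 1 array left out, the members' median difference lay between 2.57 and 2.68 in T and between 3.23 and 3.41 in PT. Leaving out an array of the line outside a comparison gave the same fit as its 4 arrays alone, so these are not separate checks. In T, 2 members lost their call in some alternative (Rrp7a and Gnl2) and 3 gained one (Imp3, Dcaf13 and Npm1); in PT 1 lost it (Rrp7a). The count called lower in T than in PT was 11, where 2.7% of all probe sets were called lower. It was 20 among probe sets above background on 2 or more arrays (11% of those probe sets) and 22 with an intensity trend (4.28% of all probe sets). It was smaller in each fit that left out 1 array, as was the share of all probe sets called lower in T. In such a fit a lone array of a line is assumed to vary like the other lines. In that comparison 10 members lost a call somewhere and 12 gained one. Centring each array on its median raised the median over all probe sets from 0.01 to 0.20 in T and from 0.08 to 0.27 in PT, and the members' medians to 2.86 and 3.48. It took the share of calls that were higher from 52.3% to 62.3% in T and from 49.9% to 60.3% in PT. With the 99th percentile of negative controls as the limit (12.15 to 13.07), 42 members were above it on both T arrays, 44 on both PT arrays and 6 on both mVec arrays, so more folds would be bounds. Equal replicate numbers did not deviate together (r = 0.08, 0.04 and 0.04 across probe sets), and they share only a number. With the replicate block the counts were 53 higher in T, 55 higher in PT and 12 lower in T than in PT. The shares of all probe sets were then 17.2%, 18.1% and 2.62% in the same order. Averaging probe sets of a gene was not run because each member has 1.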
